A study of Paxillus involutus and Laccaria bicolor with 24 samples.

Results

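The 100 gene models described here are those of the ectomycorrhizal fungus *Paxillus involutus* whose reads rose mainly at the last step of a time course, between glucose depletion and prolonged glucose depletion. They were chosen from 12032 gene models with a mean of at least 11 reads per library, out of 17968 gene models in all. For the choice, counts were divided by the total of the library and multiplied by 1000000 (CPM), and the level of a time point was log2(mean CPM + 1). A gene model qualified when its rise at the last step exceeded 0.6 of the summed absolute changes of all steps. The 100 with the largest difference between the last time point and the highest earlier one were kept, and they are ranked here by that difference. All counts of the *P. involutus* libraries entered the choice, so that the levels below are a description. Counts of calls from the main test on the same counts are printed beside the share over all tested gene models. Nothing is drawn from these or from calls under other settings.

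The mycelium was that of strain ATCC 200175, grown for 9 days on glass beads in Melin-Norkrans medium and then kept without nitrogen for 24 h. It was washed and given a hot-water extract of soil organic matter from a Norway spruce forest, supplemented with glucose, and this treatment was shared by all time points. RNA was taken on day 2 (t1, active growth), day 5 (t2, ammonium depleted), day 9 (t3, glucose depleted) and day 13 (t4, prolonged glucose depletion), with 3 biological replicates each. The time points thus differ in culture age as well as in nutrients, and these cannot be told apart. The 12 libraries held between 9843577 and 13595446 counted reads, and no culture without the extract was analysed here.

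An ectomycorrhizal fungus receives sugar from the roots of a tree and supplies the tree with nitrogen mobilized from the soil. Glucose represses many catabolic genes in fungi, and when sugar runs out the mycelium can turn to stored reserves, to other carbon compounds and to the recycling of its own cell material. Which of these functions the 100 gene models serve could not be read from the data used here. Their names are those of gene predictions, none of the 17968 names matched the 18033 rows of the reference annotation, and no role is assigned to any of them.

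At t4, the 100 gene models together took up 1.204% ± 0.031 (SD, n = 3) of all counted reads, against 0.467% ± 0.021 at t1, 0.446% ± 0.018 at t2 and 0.537% ± 0.011 at t3. In single libraries the share at t4 was 1.238, 1.177 and 1.198%, and the highest of the 9 earlier libraries had 0.545%. The t4 libraries were well apart from all others, which follows from choosing the members by their level at t4. Among the earlier libraries, those of t3 (0.525 to 0.545%) lay above those of t1 and t2 (0.431 to 0.485%). The rank 1 gene model alone held 15.0, 11.6 and 10.6% of these reads at t4. Without it, the share of the other 99 still went from 0.519% ± 0.008 at t3 to 1.055% ± 0.016 at t4. The libraries came from whole mycelium and CPM are shares of a library, so that more transcripts per cell, more cells with a transcript and less RNA of other genes cannot be told apart.

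**Figure D1:**
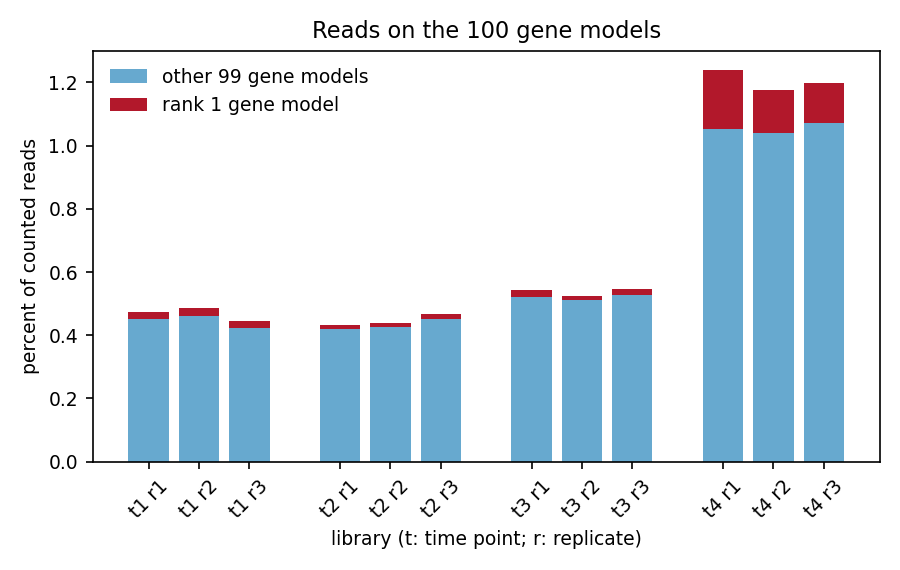
Percent of counted reads on the 100 gene models in each of the 12 *P. involutus* libraries (bars; t, time point, r, replicate), divided into the rank 1 gene model and the other 99. The 3 libraries of t4 sit between 1.177 and 1.238%, and the 9 earlier libraries between 0.431 and 0.545%.

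The gene models were not silent before t4, and the term switched on does not describe them. Of 900 values of the earlier libraries, 1 was at 0 reads, and no member was without reads in a whole earlier time point. That value belonged to rank 3 in replicate 1 of t2, where a count of 0 allows a level of up to 0.305 CPM. The mean level was below 1 CPM in 8 members at t1, in 8 at t2 and in 3 at t3, and in 2 members at all of these. Most members thus had a measurable level throughout, and the typical increase was about 2-fold. The median level of the members was 13.1 CPM at t1, 13.2 CPM at t2, 17.9 CPM at t3 and 41.7 CPM at t4, while the median of all tested gene models moved from 28.2 through 31.6 and 33.5 to 34.2 CPM. At t3, 41 of the 100 members were above the median of all tested gene models, and at t4 54 were above it. CPM were not divided by the length of the gene model, so that between gene models they compare shares of reads and not transcript levels.

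The ratio of mean CPM at t4 to that at t3 ranged from 1.69 to 11.3, with a median of 2.19. It was at least 2-fold in 65 members, at least 3-fold in 24, at least 4-fold in 10 and at least 5-fold in 6. Among all tested gene models, 194 (1.61%) had a mean at least 2-fold higher at t4 than at t3. Large increases were rare at this step, and most members rose by a moderate amount.

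Each of the 3 t4 libraries lay above each of the 9 earlier libraries in all 100 members, a pattern that 21.7% of the tested gene models had. As the means behind it chose the members, nothing is read from this count. The lowest t4 library exceeded the highest earlier one by a factor of 1.16 to 6.70 (median 1.69), and by at least 2 in 26 members. In the quasi-likelihood test of edgeR at a false discovery rate of 1%, 100 of 100 members were higher at t4 than at t3 (11.8% of tested gene models), 100 were higher at t4 than at t2 (27.7%) and 99 higher at t4 than at t1 (32.2%). These counts follow from the rule in the same way. The fitted log2 difference between t4 and t3 had a median of 1.09 (range 0.71 to 3.42) and a median standard error of 0.13.

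**Figure D2:**
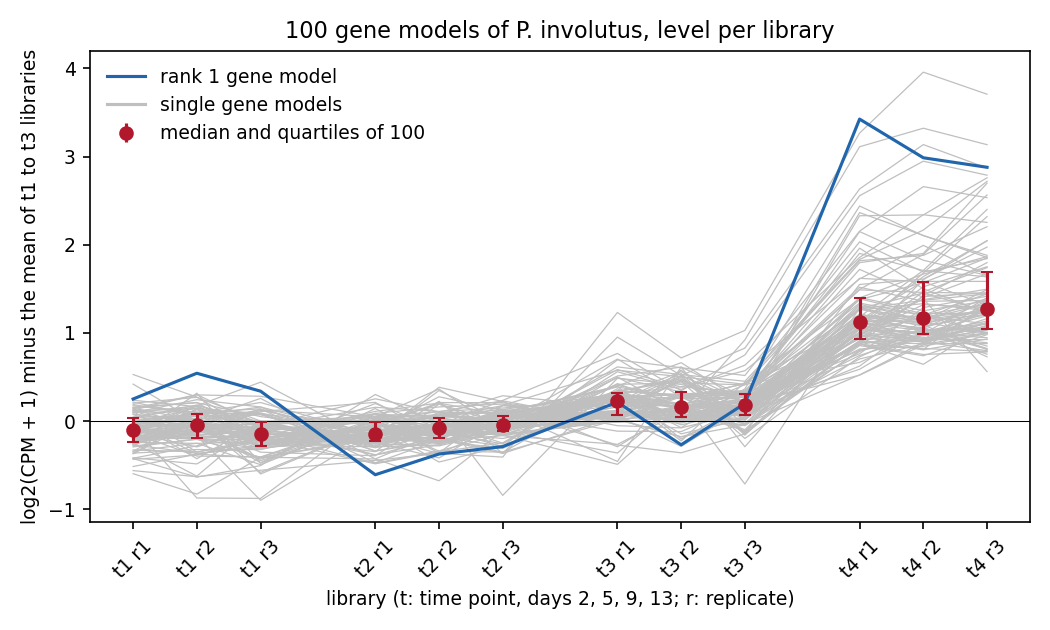
Log2(CPM + 1) of the 100 gene models in each library, minus the mean over the 9 libraries of t1 to t3 of the same gene model (grey lines, single gene models; blue, rank 1; red, median and quartiles). The medians stay close to 0 up to t3, while single gene models differ by up to 1.59 between the earlier time points, and all values lie above 0 in every t4 library.

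The member with the largest rise, estExt_Genemark1.C_10370001, also had the most reads of all members at t4. Its CPM were 204, 250 and 217 at t1, 112, 132 and 140 at t2, 199, 142 and 197 at t3, and 1851, 1365.4 and 1266.9 at t4. All t4 libraries were thus more than 5 times above every earlier one, and the level dipped at t2 before it rose. On reads, this was 2032, 1402 and 2143 at t3 against 18916, 14877 and 13256 at t4. The mean increased 8.35-fold from t3 to t4, and the fitted log2 difference was 3.02 ± 0.14 (SE, n = 3 per time point). With the authors' factors for length, G/C content and depth as offsets it was 1.91, as the factors assigned to this gene model were themselves higher at t4 than at t3 by 1.13 on the log2 scale. The rise remained under either scaling, but its size depended on it.

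The member with the next most reads at t4 was fgenesh1_kg.38_#_27_#_isotig03845 (rank 68), which was well covered at all times. Its CPM were 602, 604 and 481 at t1, 524, 480 and 545 at t2, 584, 624 and 640 at t3, and 1305.3, 1133.8 and 951 at t4. The t4 libraries did not overlap with the earlier ones, although they spread more widely. The mean increased 1.83-fold from t3, with a fitted log2 difference of 0.83 ± 0.10 (SE, n = 3 per time point), and of 0.48 with the authors' factors. The 8 members with the most reads at t4 were ranks 1, 33, 54, 58, 67, 68, 73 and 89, and the 7 after rank 1 rose by 1.7-fold to 2.25-fold only. Among them, rank 33 was the most even between replicates, with 235, 241 and 245 CPM at t3 and 550, 539 and 536 at t4.

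The other members with the largest relative rise mostly had few reads before t4. Rank 2 had 6.67, 6.31 and 6.69 CPM at t1, 7.31, 7.79 and 7.53 at t2, 25.6, 17.6 and 22.1 at t3, and 108, 175 and 147 at t4. It increased already at t3 and again, by a factor of 6.57, at t4. Rank 3 rose most in relative terms, 11.3-fold, from 10, 5 and 18 reads at t3 to 113, 142 and 118 reads at t4. Its earlier libraries held between 0 and 6 reads, so that this ratio rests on few reads before t4. Ranks 4 to 10 increased by a factor of 3.89 to 7.4 from t3 to t4. On the CPM scale, t3 was above t1 in 9 of the first 10 ranks, all but rank 1.

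The members near the end of the list had smaller differences. Rank 50 had 6.36, 6.48 and 6.79 CPM at t3 and 10.2, 15.1 and 16.6 at t4. Rank 100 had 0.293, 1.01 and 1.1 CPM at t3 and 2.35, 1.84 and 2.87 at t4, so that the libraries of these time points did not overlap in either gene model. The next gene model, just outside the list, had 2.45, 2.23 and 1.65 CPM at t3 and 4.01, 4.13 and 4.59 at t4. The difference between t4 and the highest earlier time point, on the log2(CPM + 1) scale, was 0.72 for ranks 99 and 100 and 0.70 for the next 2 gene models, so that no gap separated the members from the next gene models. The threshold on the last step was equally gradual, as its share of all steps was 0.601 in the lowest member and 0.596 in the closest gene model that failed it. Altogether 465 gene models (3.86% of those tested) passed this threshold, and 212 others differed at t4 at least as much as rank 100 did but failed it. In those 212 the median change was 0.84 from t2 to t3 and 0.93 from t3 to t4, and larger earlier steps are what failing the threshold requires.

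**Figure D3:**
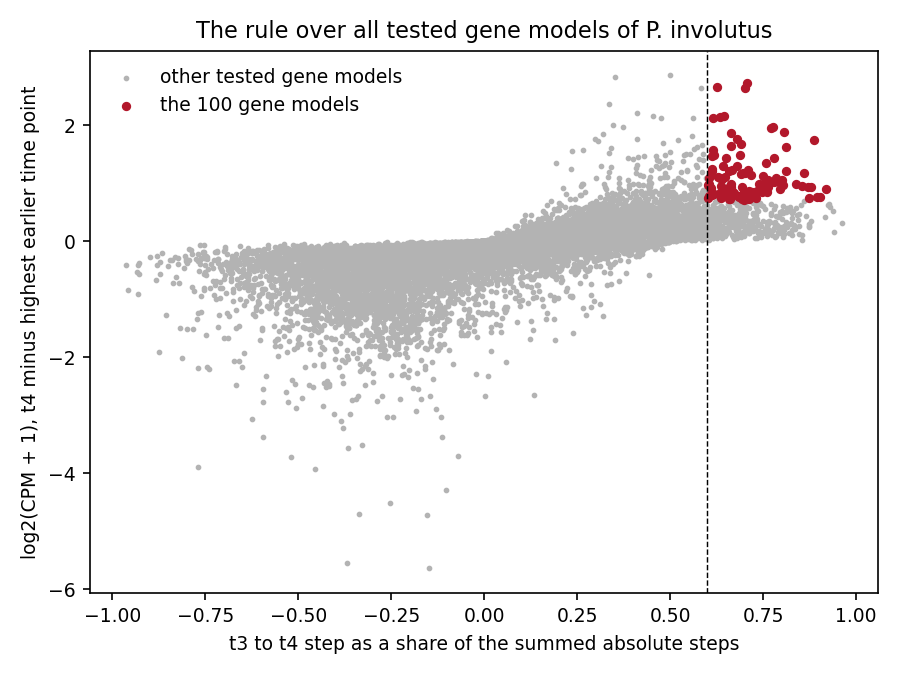
The rule over the tested gene models of *P. involutus* (grey; red, the 100 chosen): the last step as a share of the summed absolute steps (x axis; dashed line, the threshold of 0.6) and log2(CPM + 1) at t4 minus that of the highest earlier time point (y axis). The members form the upper right of a continuous cloud, from 0.72 upwards, and high differences also occur at shares below 0.6.

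Before t4 the members moved less than at the last step, as the rule requires, and the direction of these early steps depended on the scaling. On the log2(CPM + 1) scale, the median change was 0.04 from t1 to t2, 0.26 from t2 to t3 and 1.04 from t3 to t4, against 0.15, 0.07 and 0.03 over all tested gene models. The t3 level in CPM was above that of t1 in 84 members (69.7% of tested gene models), and t3 was the highest of the earlier time points in 78 (53.1%). A rise at every step was found in 49 members (28.7%), and a fall to t2 followed by a rise to t3 in 42 (15.9%). The rule requires the rise at the last step in every member, whereas 54.6% of all tested gene models rose there in CPM. The count of 49 is therefore not an excess that can be read against 28.7%. With TMM scaling, which was applied to these steps after the data were seen, the median change over all tested gene models was 0.00 from t1 to t2 and 0.01 from t2 to t3. The members then changed by a median of -0.11 and 0.20, and t3 was above t1 in 59 of them (53.0% of tested gene models). On this scale 22 members rose at every step (16.8%, with the same limit) and 63 fell to t2 and rose to t3 (23.4%). The change to t2 thus had opposite signs on the 2 scales, while the median change to t3 was above 0 on both. In the edgeR test, 14 members were higher at t3 than at t1 (26.3% of tested gene models) and 6 lower (26.5%), and none was higher at t2 than at t1 (14.1%) while 21 were lower (18%). The rule limits the size of the early steps and fixes the direction of the last one, and these counts were not compared further.

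To see the rise in libraries that had no part in the choice, the rule was applied to the 8 libraries of 2 replicate numbers, and the 100 gene models it then chose were read in the 4 libraries of the number left out. With replicate 1 left out, the median log2(CPM + 1) difference between t4 and t3 was 1.14 in the libraries used and 0.98 in those left out. With replicate 2 left out it was 1.09 and 1.00, and with replicate 3 left out 0.94 and 0.90. For these 3 sets, which are not the same as the 100 members, most of the rise was thus also seen in libraries that did not choose them. The median over all tested gene models was 0.01 to 0.04 there. In the libraries left out, t4 was the highest time point in 99, 100 and 99 of the 100 gene models, compared with 43.5, 42.5 and 40.1% of all tested gene models. The shape was found again less often, since 43, 60 and 60 met the threshold of 0.6 in the single libraries left out. On the means of all libraries, 3.86% of the tested gene models met it. This is not the same measure, and no share of tested gene models in the single libraries is given here. With 1 library per time point, no test was possible. Of the original 100, the rule chose 82, 81 and 73 again.

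**Figure D4:**
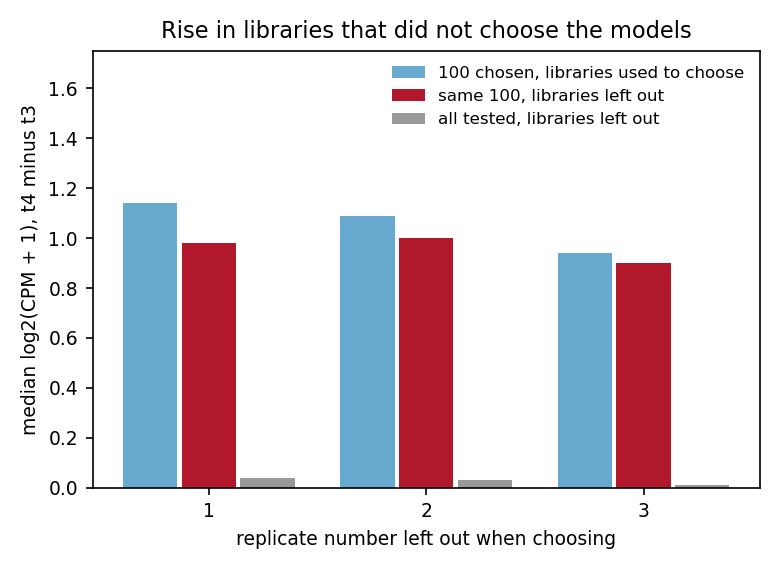
Median log2(CPM + 1) difference between t4 and t3 for the 100 gene models chosen without 1 replicate number (x axis), in the libraries used to choose them (blue) and in the 4 libraries left out (red), and for all tested gene models in the libraries left out (grey). The red bars reach 0.98, 1.00 and 0.90 and the grey bars 0.04, 0.03 and 0.01.

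The replicates of t4 were not equivalent for all members. The coefficient of variation of the CPM at t4 had a median of 12.4% over the members and 7.15% over all tested gene models, and reached 44.6% in one member. Its median was also higher over the members at t1 (9.89 against 7.53%), t2 (8.58 against 6.23%) and t3 (9.35 against 6.36%). The gene models were not matched by read level for this. Replicate 3 was the highest of the t4 libraries in 52 members (32.0% of tested gene models), replicate 1 in 32 (40.2%) and replicate 2 in 16 (27.8%). In 14 members replicate 3 was at least 1.5 times replicate 1 (on CPM + 1; 2.68% of tested gene models), and in 1 member, rank 21, replicate 1 was at least 1.5 times replicate 3 (0.715%). These groups were set after the values were seen and were not tested.

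In the 14 members with a high replicate 3, the median CPM at t4 was 19 in replicate 1, 26.9 in replicate 2 and 39.1 in replicate 3, and each of the 14 had its replicates in this order. The other 85 members had medians of 45.2, 46.5 and 45.5 CPM. At t3, replicate 2 was the highest library in 11 of the 14, in 14 of the other 85 and in 31.9% of all tested gene models. Rank 9 was the first of the 14, with 5.18, 4.15 and 4.68 CPM at t3 and 15, 16.2 and 28.9 at t4, and was 1 of the 3 in which another replicate was highest at t3. Over all 12032 tested gene models, the deviations from the time point means had correlations of -0.39 to 0.35 between single libraries of t3 and t4, among them 0.32 for replicate 2 of t3 with replicate 3 of t4. These are descriptions across gene models from shared libraries. The size of the rise in these members depended on the library, as the median log2(CPM + 1) difference from t3 was 0.68 with replicate 1 alone as t4 and 1.61 with replicate 3 alone. It was above 0 in all 14 with replicate 1 alone, the lowest value being 0.47. That sign was already given, as each t4 library of every member lay above all earlier libraries. Outside the members, 308 other tested gene models had the same difference between t4 replicates, and their median difference between t4 and t3 was 0.08. Replicate 2 was the highest at t3 in 250 (81.2%) of these, so that this feature of the 14 members was common among gene models with a high replicate 3 at t4. Whatever set the libraries apart was not tested.

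**Figure D5:**
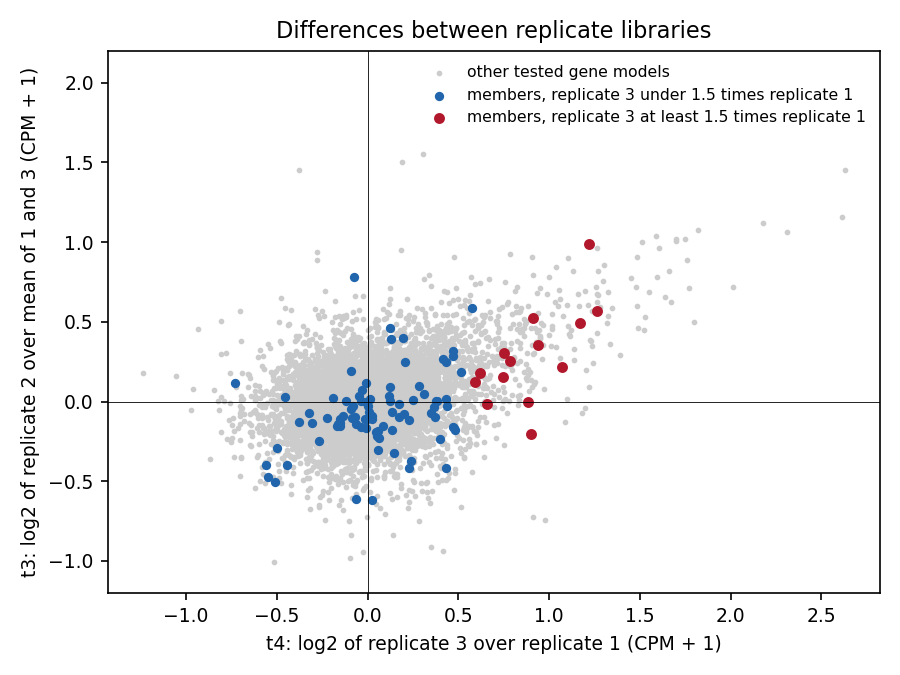
Differences between replicate libraries on a log2(CPM + 1) scale: replicate 3 over replicate 1 at t4 (x axis) and replicate 2 over the mean of the other two at t3 (y axis), for the tested gene models (grey), 14 members with a high replicate 3 at t4 (red) and the other members (blue). The red points lie to the right, and most of them lie above 0 on the y axis.

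Some other members had the opposite order of replicates at t4, in a smaller share than among all tested gene models. The order of replicate 1 above 2 above 3 at t4 was found in 18 members (25.2% of tested gene models), among them ranks 1, 7 and 8. Over the 12 libraries, the correlation of the deviations from the time point means had a median of 0.06 over the 4950 pairs of members, and it exceeded 0.8 in 2.53% of pairs (0.945% of pairs of tested gene models). Within the 14 members the median was 0.79, and within the other 85 it was 0.06. The 14 were grouped by their t4 replicates, and these enter the correlations. A high value among the 14 thus follows in part from the grouping, and nothing is read from it. These pairs share libraries and were described only.

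The tables of the authors gave further values that the rule did not use directly. The normalization factors of the members, after removal of sequencing depth, differed between t4 and t3 by a median of 0.17 on the log2 scale (range -1.28 to 1.13), compared with 0.04 for all tested gene models, and 67 members were above the latter. In the median, a small part of the rise in CPM was thus divided out by these factors. With them, t4 was above t3 in all 100 members, with a smallest log2 difference of 0.25. The threshold of 0.6 was met by 82 members, and by 554 tested gene models with these factors in all. In the regularized log values (rlog) all 100 were highest at t4, with a median difference from t3 of 0.58 (range 0.14 to 1.84), against -0.01 over the table. As both tables come from the reads that chose the members, they are no independent measurement, and these counts over members are descriptions.

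The names of the gene models carry the predictor that made them. Names starting with gm made up 26 of the 100 members and 17.5% of the tested gene models, those starting with estExt_Genewise 22 and 13.7%, and those starting with fgenesh 22 and 29.8%. A transcript contig was part of the name in 20 members and in 22.8% of the tested gene models. In 74 members the name held a number that may denote a scaffold, and 53 different numbers occurred, with at most 4 members under one number. The members were thus spread over many numbers. The number was above 400 in 17 of the 74 (23.0%), compared with 14.3% of the tested gene models with such a number, and in 6 of the 10 named in this way among the 14 members with a high replicate 3.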

How the data were processed

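RNA of whole mycelium was sequenced as single reads of 50 bp. According to the methods and the submitters' processing notes, the authors removed ribosomal reads, aligned the rest to filtered gene models with TopHat2 (version 2.0.13), allowing 1 hit per read, and counted reads on coding sequence by strand with HTSeq (version 0.6.1). The deposited counts were left unnormalized and are whole numbers, and for near-identical gene copies they are uncertain. Further deposited tables held normalization factors, a ratio per gene model and library that the authors computed with EDASeq and DESeq2 for length, G/C content and depth, and their rlog values on a log2 scale. Both were used as alternatives.

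The test across gene models (mean count 11 or more) was made with edgeR (version 4.0.16, R version 4.3.3) in a quasi-likelihood fit of time point over the 12 *P. involutus* libraries with TMM scaling and p-values adjusted after Benjamini-Hochberg (1% threshold). Standard errors came from the F statistic. CPM used the column sums, and log2 values a pseudocount of 1 CPM. SD are between replicates. The labels call these biological replicates, and no pair of libraries agreed within sampling noise. The members, rules and settings were chosen with earlier results of these data known. Identifiers are printed for rank 1, which had the highest mean CPM at t4, and the member with the next highest, and other members are given by rank, namely 2 to 10, 50 and 100 and the next one outside. Ranks 9, 21 and 33 and the members with the most reads were also described after their values were seen. Lists of functional groups were not used because no names matched. Alternatives were DESeq2 (version 1.42.0), other scalings, pseudocounts, filters and thresholds, the replicate number as a block, and each library left out.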

Additional observations from a re-analysis of the deposited data

How the results depend on the processing

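The choice of members depended most on the authors' factors, the rlog values and the step threshold. Of the 100, the rule chose 54 again with the authors' factors, 51 with the rlog values, 64 with a step threshold of 0.5 and 47 with 0.7, a threshold that 194 gene models met. Under the other scalings, pseudocounts and filters it chose 77 to 99 again, among them 79 with TMM. It chose 73 to 97 again with libraries left out, the lowest without the 4 libraries of replicate 3, and 84 to 97 without single libraries. With every single library left out, 52 members were chosen each time, and 13 under all 26 settings. The median log2 difference between t4 and t3 was 1.00 to 1.07 without single libraries, 0.87 with a pseudocount of 5 and 0.58 in rlog values, which are shrunken by construction. The median of the 3 values in libraries left out was 0.98 on CPM with a pseudocount of 1. It was 0.87 with a pseudocount of 5 and 0.90 with TMM scaling. Calls for t4 above t3 were 98 to 100 without single libraries, 95 with the DESeq2 Wald test and 92 with the authors' factors. The share over all tested gene models is given for the main test only (11.8%). These calls follow from the rule, and nothing is drawn from them. The t4 share of reads was 1.187 to 1.218% without single libraries. TMM lowered the median of all tested gene models at t4 against t1 from 0.29 to 0.04, and that of the members from 1.29 to 1.03. TMM scaling of the early steps was added after seeing the data. It turned the median change of the members from t1 to t2 from 0.04 to -0.11 and lowered the number rising at every step from 49 to 22. No other alternative run changed a direction, but these did not include the early steps, and the rule fixed the rise at t4.

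Replicate numbers did not pair the libraries (correlation of deviations of same-numbered libraries -0.39 to 0.09). With the replicate block, 100 members were higher at t4 than at t3, 100 higher than at t2 and 99 higher than at t1. Without the block, the shares of all tested gene models were 11.8, 27.7 and 32.2%. The counts over members follow from the rule here too.

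Members with few reads, down to 16 in a t4 library, have wide counting error, and functions, copies and sequences of the gene models were not analysed here.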

Other observations

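Gene models with fewer than 11 reads on average were also read for a rise at t4. Among 1689 such gene models with reads, 159 met the threshold of 0.6, and 1 differed more than rank 100, with 16 to 22 reads in the t4 libraries. Reads at t4 alone were found for 57 gene models, with at most 4 reads over its 3 libraries, compared with 44, 56 and 47 gene models with reads at t1, t2 or t3 alone. No gene model without reads at t1 to t3 had reads in all t4 libraries.

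*Laccaria bicolor* was grown on the same extract, after a longer time in Melin-Norkrans medium than *P. involutus*. Sampling was on days 2, 13, 23 and 30. The same rule was applied to 14352 tested gene models of *L. bicolor*, and 632 (4.40%) met the threshold of 0.6. The log2(CPM + 1) difference between t4 and the highest earlier time point was 1.43 for its rank 1 and 0.43 for its rank 100. Its 100 gene models took up 0.159% ± 0.002, 0.157% ± 0.002, 0.176% ± 0.007 and 0.276% ± 0.011 of the counted reads at t1 to t4 (SD, n = 3), with a median rise of 0.56 from t3 to t4. No table used here pairs the gene models of the species, and the difference between species was not tested.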
